A study of Mus musculus with 21 samples.

Results

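Two-cell-like cells (2CLC) were compared with embryonic stem cells (ESC) of the mouse across every gene name of the deposited cell-state table, in 3 libraries of each. The members of the comparison were all 21161 names, with entries of the same name summed, and 16358 of them reached 1 FPKM (fragments per kilobase of transcript, scaled to the mapped total) in at least 3 of the table's 12 libraries and were tested. The series holds 21 libraries, of which the others are epiblast stem cells (EpiSC), embryonic fibroblasts (MEF) and stem cells with or without sodium lactate. The labels give every library used here the line OG2, a name for mice whose cells carry a green fluorescent reporter driven by Pou5f1 sequences, and the treatment "WT". They do not say how 2CLC were obtained, whether by sorting a reporter or by culture. Nor do they say whether the 3 replicates of a group were separate cultures, so p-values measure only the spread between libraries. That spread was pooled over the table's 12 libraries, so EpiSC and MEF libraries enter each SE and p-value.

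The early mouse embryo switches on its own genome at the 2-cell stage, in a burst that includes Dux, the Zscan4 cluster and transcripts started within MERVL retroviral repeats. Cultured ESC resemble the later inner cell mass and are held there by LIF acting through STAT3, and a small and changing share of them reactivates the 2-cell programme. Cells in that state are called 2-cell-like, and they are used as a model of totipotency.

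The values are FPKM as deposited, with no read counts, so the depth of each library is unknown. Summed FPKM ranged from 518399 to 519915 in 2CLC and from 415173 to 416600 in ESC, and 12266 to 12607 genes per library reached 1 FPKM. The 10 most abundant genes held 11.7 to 13.1% of all FPKM in a 2CLC library and 5.12 to 5.4% in an ESC library. Single-copy genes of the 2-cell programme were abundant in the libraries labelled 2CLC, where their summed level was 4635 to 4788 FPKM against 444 to 455 in ESC. Across genes, Pearson's r of log2(FPKM + 1) was 0.989 to 0.99 between 2CLC libraries, 0.996 between ESC libraries and 0.763 to 0.776 between the groups.

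How many genes moved, and which way, depended on the scaling. As deposited, 3296 genes were higher in 2CLC (20.1% of those tested) and 9220 lower (56.4%) by limma at a Benjamini-Hochberg adjusted p under 0.05, and the median change of all tested genes was -0.46 (2CLC minus ESC, log2 of FPKM + 1). Scaling each library to the same sum moved that median to -0.81, quantile normalization to -0.28 and median-of-ratios scaling to 0.02. The higher genes made up 26.3, 20.6, 31.7 and 53.2% of all calls under these 4 scalings, in that order. Under all 4 together, 2642 genes were higher (16.2%), 5301 were lower (32.4%) and 8415 had no call that held (51.4%). Below, a gene "rose" or "fell" only if its call and direction held under all 4 scalings, and a list's counts are to be read against 16.2% and 32.4%, and its median log2 change against -0.46 as deposited and 0.02 with median-of-ratios scaling. A change written from one level to another goes from the mean of ESC to that of 2CLC, each with its SD over 3 libraries. By at least 1 on the log2 scale under all 4, 1947 genes rose (11.9%) and 1612 fell (9.85%). The libraries of 2CLC and ESC did not overlap for 82.5% of tested genes (13501).

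**Figure D1:**
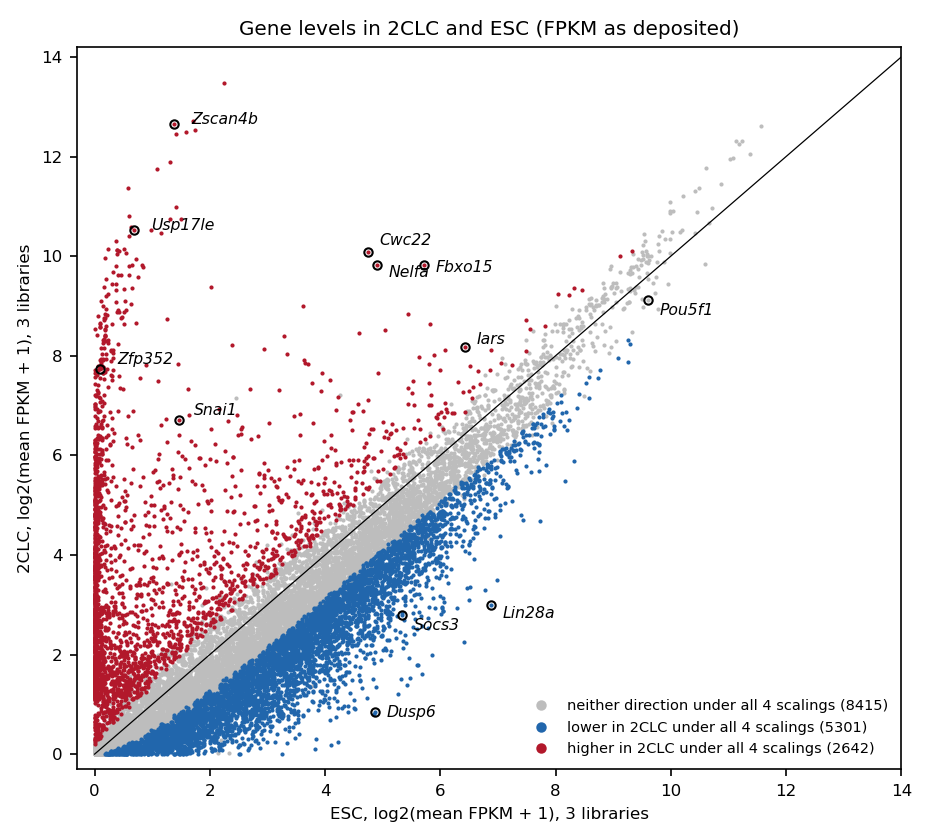
Mean level of each of the 16358 tested genes in ESC (horizontal axis) and 2CLC (vertical axis), both as log2(FPKM + 1) over 3 libraries, with the line of equal levels. The 2642 genes in red rose and the 5301 in blue fell under all 4 scalings, and the column of red points at the left edge holds genes near 0 FPKM in ESC.

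The largest rises were in genes of the 2-cell embryo that ESC hardly expressed. Zscan4b, of the zinc finger cluster on chromosome 7 whose proteins act at telomeres, stood at 6239.9, 6081 and 6965 FPKM across the 2CLC libraries and 1.65, 1.62 and 1.49 across the ESC libraries. Usp17le, a deubiquitinating enzyme of a multi-copy family, stood at 1421, 1428 and 1551 FPKM across the 2CLC libraries and 0.453, 0.724 and 0.642 across the ESC libraries. Every 2CLC library exceeded every ESC library by over 3 orders of magnitude for both genes (log2 changes 11.28 ± 0.06 and 9.84 ± 0.09, SE, on the log2(FPKM + 1) scale). Eif4a3l1, a copy of the exon junction helicase Eif4a3, was measured at 939.6, 963 and 817 FPKM across the 2CLC libraries and 0.837, 0.723 and 0.72 across the ESC libraries (log2 change 9.01). Chit1, a secreted enzyme that cuts chitin, was measured at 276, 283 and 266 FPKM across the 2CLC libraries and 0.287, 0.232 and 0.146 across the ESC libraries. Sp110, a nuclear body protein, stood at 179, 183 and 144 FPKM across the 2CLC libraries and 0.0615, 0.0254 and 0.0491 across the ESC libraries. These 3 genes were under 1 FPKM in each ESC library and over 100 in each 2CLC library. Tcstv3, Pramef25, Spopfm1, Tmem92, Ccser1, Zfp352 and Tmem132c made up the rest of the 12 largest rises, with means of 181 to 1073 FPKM in 2CLC and 0.0645 to 0.456 in ESC. All 12 had adjusted p-values of 1.93e-12 or less under each scaling (limma), but 10 of them reached the filter only through 2CLC, which fixed their direction. On GRCm38, Zscan4b lies on chromosome 7, 10900740 to 10905050, Usp17le on chromosome 7, 104768049 to 104777470, Chit1 on chromosome 1, 134111242 to 134151540 and Sp110 on chromosome 1, 85576899 to 85598817. Copies of Zscan4, Usp17l, Pramel and Spopfm are close in sequence, so the split of FPKM among copies is uncertain.

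Further single-copy genes of the 2-cell programme rose from low levels. Of 32 tested, 23 rose and 1 fell, and 12 of the 32 reached the filter only through 2CLC, so that the filter fixed their direction. Arg2, a mitochondrial arginase, was measured at 122, 118 and 112 FPKM across the 2CLC libraries and 0.382, 0.301 and 0.277 across the ESC libraries. Lmx1a, a homeobox factor better known from neurons, was measured at 70.2, 78.2 and 59.1 FPKM across the 2CLC libraries and 0.143, 0 and 0.0715 across the ESC libraries. Every 2CLC library lay above 50 FPKM and every ESC library below 0.5 for both. Dppa2, which opens chromatin at Dux, rose from 54.7 ± 3.21 to 227 ± 18.6 FPKM, while its partner Dppa4 stood at 42.9 ± 1.01 FPKM in 2CLC and 67.1 ± 2.8 in ESC without a call that held. Prnp, the prion protein, rose from 1.5 ± 0.216 to 32.2 ± 3.57 FPKM, Rxra, a nuclear receptor, from 6.25 ± 0.132 to 48.6 ± 3.59 FPKM and Ddit4l, an inhibitor of mTOR signalling, from 2.17 ± 0.269 to 76.8 ± 8.66 FPKM. Ccnd2, a cyclin of the G1 phase, was the 1 member that fell, from 9.35 ± 0.82 to 0.458 ± 0.144 FPKM. Among multi-copy families, all 9 tested Zscan4 names, all 12 Tdpoz and Spopfm names and all 38 Obox names rose, and 2, 12 and 38 of them reached the filter only through 2CLC. Pramef12, which belongs to a family of oocyte and embryo genes in which 8 of 9 tested names rose, was measured at 15.5, 14.5 and 13.3 FPKM across the 2CLC libraries and 35.7, 30.7 and 33.9 across the ESC libraries and fell. Of the 9 names, 7 reached the filter only through 2CLC, so that the filter fixed their direction.

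Other rises began from genes that ESC already expressed. Of 6229 genes with at least 10 FPKM in ESC, 84 rose by at least 1 under all 4 scalings, and the 10 largest, chosen after their values were seen, were in every 2CLC library above all 9 libraries of ESC, EpiSC and MEF. Cwc22, which brings EIF4A3 to the spliceosome, was measured at 1107, 1138 and 995 FPKM across the 2CLC libraries and 25.8, 24.6 and 26.6 across the ESC libraries (log2 change 5.34 ± 0.09). Nelfa, a subunit of the complex that holds RNA polymerase II paused near the start of genes, stood at 902, 937 and 883 FPKM across the 2CLC libraries and 28.5, 28.9 and 29.1 across the ESC libraries (log2 change 4.93 ± 0.06). Aqr, an intron-binding helicase of the spliceosome, was measured at 449, 470.2 and 447 FPKM across the 2CLC libraries and 41.5, 42.8 and 42.1 across the ESC libraries. These genes of RNA synthesis and splicing thus stood about an order of magnitude or more above ESC in each library. Zfp809, a zinc finger protein that silences retroviruses, rose from 16 ± 0.835 to 181 ± 4.05 FPKM. Ercc4, a nuclease of DNA repair, rose from 12.7 ± 0.796 to 174 ± 9.71 FPKM, and Uap1, which makes the sugar donor UDP-GlcNAc, from 11.4 ± 0.13 to 241 ± 3.27 FPKM. Fbxo15, Dst (a cytoskeletal linker), Lonp2 (a protease of peroxisomes) and Bola1 (a mitochondrial protein) completed the 10, with log2 changes of 3.48 to 4.11, and the adjusted p-values of all 10 were at most 2.08e-08 under each scaling. Cwc22 lies on chromosome 2, 77881159 to 77946375 and Nelfa on chromosome 5, 33897916 to 33936413.

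**Figure D2:**
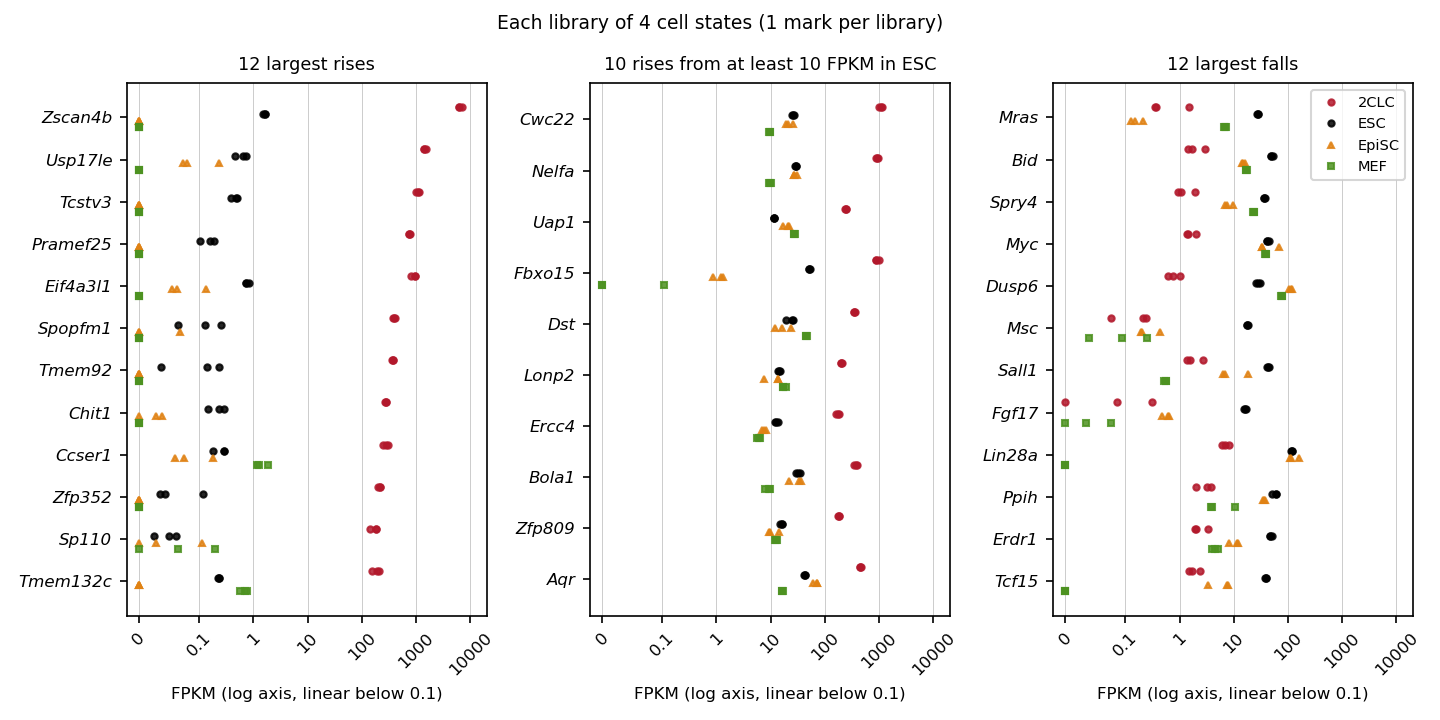
FPKM of each library (horizontal log axis, linear below 0.1) for the 12 largest rises, the 10 largest rises among genes with at least 10 FPKM in ESC, and the 12 largest falls, with 1 mark for each of 3 libraries of 2CLC, ESC, EpiSC and MEF. In the first panel all 3 2CLC marks lie above 100 FPKM. In the third the ESC marks lie above the 2CLC marks for each gene, which the choice of genes required.

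Rises were most frequent among genes near 0 in ESC, and falls among genes of middle levels. Of 1869 tested genes under 0.1 FPKM in ESC, 58.4% rose and 0% fell, but 1004 of them reached the filter only through 2CLC, which fixed their direction. Between 1 and 5 FPKM, 10.9% of 3862 rose and 38.2% fell. Between 5 and 20 FPKM the shares were 5.55 and 44.8% of 4433 genes. At 100 FPKM and over, 2.13% of 752 genes rose and 23.4% fell. Genes risen by at least 1 held 31.8% ± 0.963 of all FPKM in 2CLC and 0.776% ± 0.00667 in ESC (SD, n = 3). The Zscan4 names alone held 9.95% ± 0.814 in 2CLC. Fallen genes went from 7.5% ± 0.0649 to 1.15% ± 0.0824. The shares by level were not tested.

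**Figure D3:**
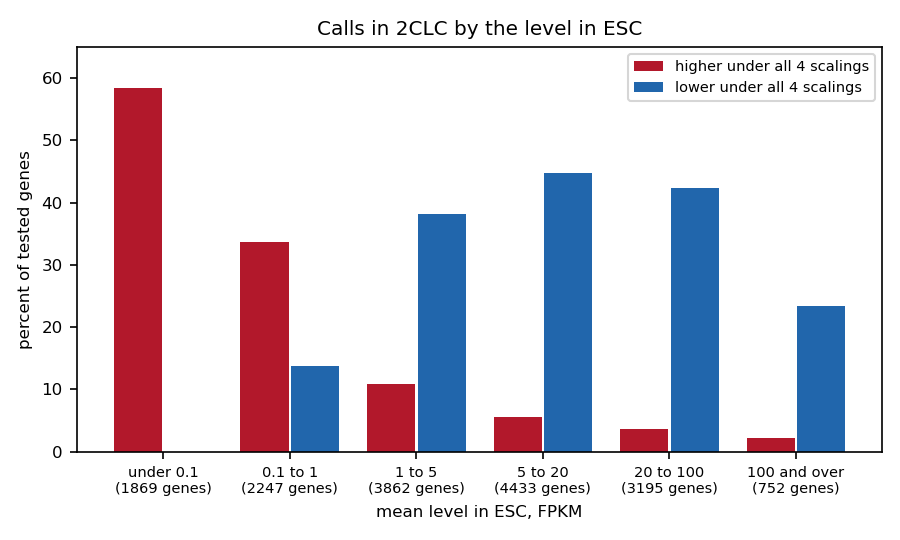
Percent of tested genes that rose (red) or fell (blue) under all 4 scalings, by mean FPKM in ESC. The risen share goes from 58.4% under 0.1 FPKM to 2.13% at 100 FPKM and over.

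Genes risen by at least 1 differed in kind from those that fell. In GENCODE M21, 47.5% of the 1829 risen genes with a unique place were protein coding, 26.7% pseudogenes and 16.5% long noncoding genes. Among all tested genes these shares were 81.8, 9.46 and 5.62%, and among the fallen 90.8, 2.53 and 4.55%. Genes with a single exon made up 33% of the risen, 5.75% of the fallen and 13.2% of all tested genes. Pseudogenes and gene copies share reads with their parents, and how the authors assigned such reads is not stated in the labels. Of the risen genes, 1444 also stood under 1 FPKM in both EpiSC and MEF, and in 1784 each 2CLC library exceeded all 9 libraries of the other states. Over all tested genes these shares were 13 and 14.5%, against 74.2 and 91.6% of the risen. Of the 1612 fallen genes, 1135 lay in each 2CLC library below all 9 others (70.4%, against 35.2% of all tested genes). These shares are descriptions with no test, and 1407 of the 1947 risen genes reached the filter only through 2CLC. Those 1407 had 1 FPKM in fewer than 3 of the 9 other libraries. Risen genes were also chosen as higher in 2CLC than in ESC, and fallen genes as lower. The shares of both sets thus follow in large part from how the genes were chosen. Of the fallen genes, 109 reached the filter only through ESC.

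Risen genes lay in blocks along the genome. Chromosomes 12 and 13 had the highest risen shares of tested genes, 21.7 and 20.6%, and chromosome 19 the lowest of the autosomes, 4.89%. In windows of 1 Mb on GRCm38, 38 of 48 tested genes rose at 87 to 88 Mb of chromosome 12, where the risen genes largely bear predicted-gene names, and 32 of 34 in the next window. At 15 to 16 Mb of chromosome 7, 32 of 36 rose in the block of Obox genes, homeobox genes of the oocyte and early embryo. At 11 to 12 Mb all 21 rose in the block of Zscan4 genes. Around Sp110 and its neighbour Sp140, at 85 to 86 Mb of chromosome 1, 20 of 22 rose. The Pramef block at 143 to 144 Mb of chromosome 4 had 19 of 22 and the Tdpoz block at 93 to 94 Mb of chromosome 3 had 17 of 23. The 22 windows with at least 10 risen genes held 355 of the 1829 placed risen genes (19.4%). No fall stood in these named windows except 1 gene in the Tdpoz block. Over all tested genes 11.9% rose by at least 1. The windows count tested genes only, and 1407 of the 1947 risen genes reached the filter only through 2CLC. All 38 tested Obox names and all 12 Tdpoz and Spopfm names did so, which fixed their direction. The clustering was not tested.

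Promoters of risen genes held fewer CpG than those of fallen genes, and about as many as promoters at large. In the RefSeq promoters (GRCm38.p6, 250 bases before to 50 after each start), the median number of CpG was 8 over 946 promoters of 809 risen genes, 20 over 1633 promoters of 1176 fallen genes and 20 over all tested genes. Over all 32851 promoters of the table, most of them of genes outside the tested set, it was 7. These medians are a description with no test. Shown as clear examples, and not typical ones, are the 120 bases before the start of Chit1 (chr1:134111122-134111241, plus strand), which rose, and of Socs3 (chr11:117969367-117969486, minus strand), which fell. Capitals mark each CpG, 1 in Chit1 and 18 in Socs3. Over the full promoters they held 2 and 31, outside the quartiles of risen (3 and 20) and fallen promoters (10 and 30).
Chit1: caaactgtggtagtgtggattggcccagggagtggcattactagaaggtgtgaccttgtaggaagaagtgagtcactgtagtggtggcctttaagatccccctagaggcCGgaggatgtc
Socs3: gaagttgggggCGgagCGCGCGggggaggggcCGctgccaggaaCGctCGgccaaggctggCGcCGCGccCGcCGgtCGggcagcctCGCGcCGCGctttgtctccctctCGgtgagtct

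Some risen promoters shared a stretch of letters. CACCTTTAATCC, which begins 67 bases before the start of Zfp352, was chosen after the promoters of risen genes had been read. Searched on both strands, it was found in 21 of 946 promoters of risen genes (2.22%), in 1 of 1633 of fallen genes (0.0612%) and in 45 of all 32851 (0.137%). Those 45 belong to 44 genes. Of the 21 that were tested, 20 rose by at least 1, and Sgk1, a kinase induced by serum and steroids, fell from 172 ± 2.86 to 25 ± 1.29 FPKM. 19 of the 21 reached the filter only through 2CLC, which fixed their direction, and 21 more are not among the table's names. Besides the genes shown next, the letters stood before Tdpoz1, Tdpoz8, Tdpoz9, Esp24 and Pemt, an enzyme of phosphatidylcholine synthesis that rose from 4.21 ± 0.303 to 47 ± 3.17 FPKM. The 120 bases before the start are given for Zfp352 (chr4:90218700-90218819, plus strand), Sp110 (chr1:85603892-85604011, minus strand, from 2 listed starts the 1 with the letters), Eif4a3l1 (chr6:136327419-136327538, plus strand), Spopfm2 (chr3:94178194-94178313, minus strand) and Pramel5 (chr4:144280467-144280586, minus strand). Capitals mark the letters or their reverse complement, GGATTAAAGGTG, and the letters stand on either strand.
Zfp352: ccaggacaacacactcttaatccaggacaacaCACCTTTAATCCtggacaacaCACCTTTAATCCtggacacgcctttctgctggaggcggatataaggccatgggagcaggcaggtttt
Sp110: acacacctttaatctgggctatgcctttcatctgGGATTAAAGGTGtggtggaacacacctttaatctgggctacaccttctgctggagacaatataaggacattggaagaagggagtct
Eif4a3l1: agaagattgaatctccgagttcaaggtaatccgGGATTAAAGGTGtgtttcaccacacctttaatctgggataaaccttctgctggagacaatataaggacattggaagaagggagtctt
Spopfm2: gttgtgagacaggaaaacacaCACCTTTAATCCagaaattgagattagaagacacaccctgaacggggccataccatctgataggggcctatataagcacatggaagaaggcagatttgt
Pramel5: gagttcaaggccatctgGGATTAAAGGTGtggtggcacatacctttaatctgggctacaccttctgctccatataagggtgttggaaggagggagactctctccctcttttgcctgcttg
Spopfm2 stood at 91.1, 94.6 and 92.4 FPKM across the 2CLC libraries and 0.0925, 0 and 0.0321 across the ESC libraries, and Pramel5 at 9.82, 10.7 and 13.8 FPKM across the 2CLC libraries and 0, 0 and 0.0571 across the ESC libraries. Whether these stretches belong to a repeat was not tested.

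Short motifs of 2-cell factors were also counted on both strands. The palindromic motif of DUX was in 0 risen, 0 fallen and 11 of all 32851 promoters. TGCACAC, known for ZSCAN4, was in 4.44% of risen, 4.59% of fallen and 4.4% of all promoters. GGATTA, known for OBOX-type homeobox proteins and overlapping the stretch above, was in 11.4% of risen, 4.78% of fallen and 7.06% of all promoters. Among promoters with at most 5 CpG, the GGATTA shares were 17, 12.4 and 9.41%, again with any promoters that hold the stretch counted.

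The 12 largest falls took genes from means of 16.1 to 117 FPKM in ESC to 0.133 to 6.95 in 2CLC. Mras, a RAS-family GTPase, stood at 0.353, 0.368 and 1.52 FPKM across the 2CLC libraries and 28.5, 27 and 28 across the ESC libraries (log2 change -4.11 ± 0.19). Spry4, a Sprouty inhibitor of FGF signalling, was measured at 0.942, 1.06 and 1.9 FPKM across the 2CLC libraries and 36.9, 36.9 and 38 across the ESC libraries. Dusp6, the phosphatase that switches ERK off, was measured at 0.768, 0.611 and 1.01 FPKM across the 2CLC libraries and 28, 26 and 30.3 across the ESC libraries. The 2CLC libraries lay below 2 FPKM for these genes, with replicate 3 the highest, and the ESC libraries above 20. Myc, a growth regulator, stood at 1.4, 1.44 and 2 FPKM across the 2CLC libraries and 41.6, 40.4 and 43.9 across the ESC libraries (log2 change -4.05). Bid, which links death receptors to mitochondria in apoptosis, was measured at 1.45, 1.73 and 2.98 FPKM across the 2CLC libraries and 49.7, 49.1 and 51.9 across the ESC libraries. Lin28a, which blocks maturation of let-7 microRNAs, was measured at 6.8, 6.01 and 8.04 FPKM across the 2CLC libraries and 121, 115 and 117 across the ESC libraries. Groups again did not overlap for these 3 genes, which the rule for naming the largest falls required. In all genes given library by library here and below, the groups did not overlap, except Actb. The rule also required this of the further members named per list. Groups did not overlap in 82.5% of all tested genes. Sall1 and Tcf15, both transcription factors, fell from 43.5 ± 1.49 to 1.87 ± 0.706 FPKM and from 39 ± 1.16 to 1.86 ± 0.441 FPKM. Msc, Fgf17, Ppih (a cyclophilin of the spliceosome) and Erdr1 completed the 12 largest falls, with log2 changes of -3.86 to -3.99, and the adjusted p-values of all 12 were 1.65e-06 or less under each scaling. Of the 12, 6 lay in each 2CLC library below all 9 libraries of the other states, and 8 were highest in 2CLC replicate 3. Over all 1612 fallen genes replicate 3 was the highest 2CLC library in 938 (58.2%), against 33.4% of all tested genes. Among the risen genes replicate 1 was the highest ESC library in 55%, against 39.3% of all tested. On GRCm38, Mras lies on chromosome 9, 99385420 to 99437381, Dusp6 on chromosome 10, 99263231 to 99267489 and Lin28a on chromosome 4, 134003330 to 134018841.

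Genes listed as regulators of naive pluripotency mostly fell, though not all of them were higher in ESC than in EpiSC. Of 30 tested regulators, 2 rose and 18 fell, with a list median of -1.21 as deposited and -0.46 with median-of-ratios scaling. Utf1, a chromatin factor of pluripotent cells, was measured at 23.6, 23.5 and 27.1 FPKM across the 2CLC libraries and 209, 215 and 207 across the ESC libraries. Fgf4, an autocrine growth factor of ESC, stood at 5.35, 6.35 and 8.46 FPKM across the 2CLC libraries and 65.9, 63.4 and 62.7 across the ESC libraries. Prdm14, a repressor of differentiation, stood at 1.03, 0.855 and 1.48 FPKM across the 2CLC libraries and 5.76, 6.15 and 6.1 across the ESC libraries. Tbx3 fell from 48.7 ± 1.98 to 21.5 ± 0.875 FPKM, while Klf2 stood at 44.3 ± 2.06 FPKM in 2CLC and 82.3 ± 3.53 in ESC, and its change of -1.20 to -0.12 over the scalings was not called under each. Pou5f1, the core pluripotency factor, was measured at 533, 553 and 571 FPKM across the 2CLC libraries and 778, 776 and 782 across the ESC libraries, and its change of -1.17 to 0.27 over the scalings likewise kept no call. Fbxo15 rose, and so did Dppa3, a maternal factor that guards the oocyte genome's methylation, from 0.53 ± 0.323 to 9.12 ± 0.465 FPKM. Of the list, Utf1 and Lin28a had higher means in EpiSC (314 and 129 FPKM) than in ESC (210 and 117). Klf2, Tbx3, Prdm14, Fgf4 and Fbxo15 were lower in EpiSC than in ESC, at means of 0 to 15.7 FPKM. In bulk RNA, a smaller share of cells that express a gene and less RNA in each cell cannot be told apart.

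The LIF pathway, from receptor to target genes, was lower. Of 20 tested members 2 rose and 14 fell (list median -1.75 as deposited and -1.11 with median-of-ratios scaling). The receptor Lifr stood at 2.55, 2.63 and 2.08 FPKM across the 2CLC libraries and 12.7, 12.3 and 12.2 across the ESC libraries. Stat3, the transcription factor it activates, stood at 3.39, 3.61 and 4.67 FPKM across the 2CLC libraries and 33.6, 31.4 and 32.7 across the ESC libraries. Socs3, the feedback inhibitor whose promoter is shown above, was measured at 4.92, 6.5 and 6.27 FPKM across the 2CLC libraries and 40.2, 38.4 and 39.4 across the ESC libraries. For these 3 genes every 2CLC library lay below 7 FPKM and every ESC library above 12. Il6st, the co-receptor gp130, fell from 7.22 ± 0.063 to 0.59 ± 0.284 FPKM. Targets Junb, Pim3, Gbx2 and Bcl3 fell with log2 changes of -2.78 to -3.38. Jak1, the kinase bound to the receptor, and Jak2 rose, from 9.79 ± 0.641 to 14.7 ± 1.27 FPKM and 0.856 ± 0.139 to 1.37 ± 0.0591 FPKM.

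FGF signalling through ERK, which primes ESC for differentiation, showed falls in ligand and feedback genes. 15 of 28 members fell and 5 rose, with a median of -1.24 as deposited and -0.58 with median-of-ratios scaling. Etv4, a transcription factor induced by ERK, was measured at 9.39, 8.96 and 9 FPKM across the 2CLC libraries and 91, 83.4 and 87.5 across the ESC libraries. Spred1, an inhibitor of RAF activation, fell from 12.9 ± 0.387 to 1.37 ± 0.197 FPKM, and the receptor Fgfr1 from 24.8 ± 1.33 to 9.78 ± 1.09 FPKM. Grb2, the adaptor between receptor and RAS, was measured at 86.2, 92.8 and 64.3 FPKM across the 2CLC libraries and 30.7, 30.8 and 33.3 across the ESC libraries and rose. The immediate early genes Egr1 and Fos rose from under 1 FPKM, to 0.936 ± 0.293 and 1.45 ± 0.163 FPKM, and the call of Fos was lost with a pseudocount of 5 (adjusted p = 0.0709, limma). Spry2 stood at 26.8 ± 0.956 FPKM in 2CLC and 32.8 ± 0.814 in ESC, and its direction changed with the scaling (log2 changes -0.28 as deposited and 0.46 with median-of-ratios scaling).

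Nodal and BMP signalling, whose ligands act through SMAD proteins, had no rise. Of 28 tested members 0 rose and 20 fell (median -1.45 as deposited and -0.79 with median-of-ratios scaling). Among ligands, Nodal stood at 3.05, 3.21 and 4.47 FPKM across the 2CLC libraries and 27.6, 26.1 and 26.4 across the ESC libraries. Bmp4 stood at 0.697, 0.696 and 1.3 FPKM across the 2CLC libraries and 17.8, 16.2 and 18.8 across the ESC libraries. Inhbb, an activin subunit, stood at 0.0479, 0.0474 and 0.144 FPKM across the 2CLC libraries and 13.5, 12.4 and 13.7 across the ESC libraries. The 2CLC libraries were below 5 FPKM for each ligand. The Nodal antagonists Lefty1 and Lefty2 fell, from 15 ± 2.12 to 1.27 ± 0.396 FPKM and 54.3 ± 5.01 to 10.2 ± 4.8 FPKM. Of the receptors, Acvr1b fell from 9.17 ± 0.326 to 1.1 ± 0.187 FPKM and Bmpr1a from 14.4 ± 0.31 to 6.15 ± 0.478 FPKM. The BMP target Id1 was measured at 13, 13.7 and 17.9 FPKM across the 2CLC libraries and 63.7, 62.8 and 63.4 across the ESC libraries, and the inhibitory Smad7 fell from 16.9 ± 0.925 to 3.34 ± 0.635 FPKM.

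In the Wnt pathway 12 of 28 members fell and 2 rose. The receptors Fzd5 and Fzd7 fell from 36.6 ± 1.24 to 4.02 ± 0.837 FPKM and from 12.3 ± 0.285 to 2.43 ± 0.442 FPKM. Ccnd1, a cyclin of the G1 phase, was measured at 5.05, 5.99 and 7.16 FPKM across the 2CLC libraries and 63.6, 64.3 and 62.8 across the ESC libraries, and the target Cdx1 fell from 19.3 ± 0.941 to 2.44 ± 0.498 FPKM. Axin2, the feedback gene most used as a Wnt readout, stood at 13, 14.3 and 12.4 FPKM across the 2CLC libraries and 10.4, 9.78 and 9.84 across the ESC libraries and did not keep a call (log2 changes 0.08 to 1.08). Ctnnb1, beta-catenin itself, changed direction with the scaling (-0.36 as deposited, 0.40 with median-of-ratios scaling). Wls, needed to secrete Wnt proteins, rose from 1.81 ± 0.225 to 7.12 ± 0.391 FPKM.

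**Figure D4:**
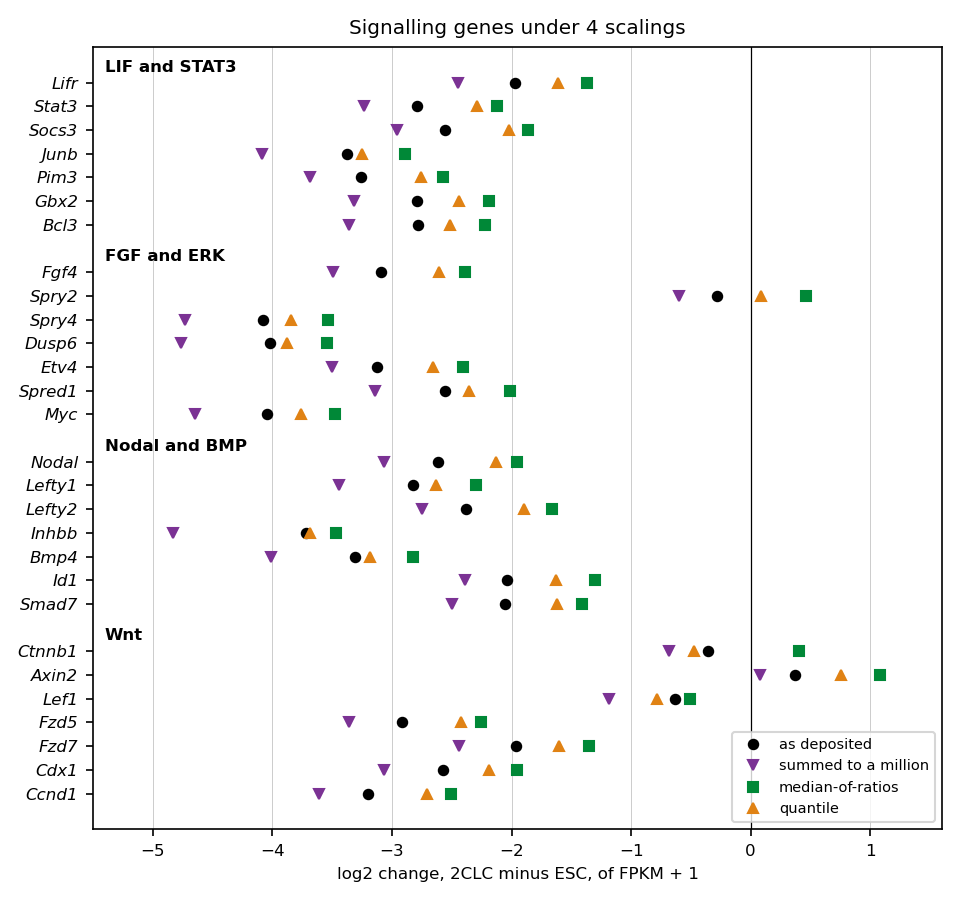
Log2 change of FPKM + 1 (2CLC minus ESC) of 28 signalling genes under the 4 scalings, 1 mark per scaling. Plotted per list are the anchor genes and the 4 called members with the largest change. Members without a call are therefore mostly absent, as are Jak1 and Jak2 of the LIF list, which rose. All marks of the plotted LIF and Nodal genes lie below 0, while those of Spry2 and Ctnnb1 lie on both sides.

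Genes for chromatin repression, which hold the 2-cell programme silent in ESC, were lower or without a call. Of 39 tested members 0 rose and 23 fell (median -1.17 as deposited and -0.43 with median-of-ratios scaling). Mga and Max, which form the DNA-binding pair of the Polycomb complex PRC1.6, both fell. Max was measured at 9.93, 9.31 and 9.55 FPKM across the 2CLC libraries and 49.4, 49.1 and 47.7 across the ESC libraries, and Mga fell from 25.7 ± 0.793 to 5.84 ± 0.86 FPKM. Other PRC1.6 members Pcgf6 and E2f6 fell, from 39.6 ± 1.39 to 16.3 ± 0.669 FPKM and 7.64 ± 0.705 to 1.49 ± 0.456 FPKM. Cbx5, the heterochromatin protein HP1 alpha, was measured at 18.1, 18.3 and 17.8 FPKM across the 2CLC libraries and 70.5, 71 and 71.8 across the ESC libraries. Chaf1a, the large subunit of CAF-1, fell from 29 ± 0.432 to 11.6 ± 0.618 FPKM. Setdb1, the H3K9 methyltransferase, stood at 30.8 ± 0.924 FPKM in 2CLC and 35.8 ± 0.936 in ESC and Trim28, its corepressor, at 655 ± 27 FPKM in 2CLC and 627 ± 9.56 in ESC, and neither kept a call. Dnmt1, which copies DNA methylation, fell from 84.2 ± 2 to 36.5 ± 1.77 FPKM.

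Zinc finger genes with a Zfp name, many of them repressors of repeats, fell more often than they rose: 185 of 360 fell and 30 rose. Zfp560 went the other way, at 200.2, 212 and 122 FPKM across the 2CLC libraries and 1.07, 1.04 and 1.32 across the ESC libraries, with 2CLC replicate 3 the lowest of its group. Zfp36l2, which destabilises messenger RNA, stood at 0.965, 0.654 and 0.79 FPKM across the 2CLC libraries and 20.1, 19 and 21.3 across the ESC libraries.

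Genes for the architecture of the nucleus had falls and no rises. Of 36 genes for cohesin, the nuclear pore and the lamina 0 rose and 20 fell (median -0.997 as deposited and -0.24 with median-of-ratios scaling). Ctcf, which fixes chromatin loops, was measured at 32.5, 28.1 and 31.2 FPKM across the 2CLC libraries and 80.2, 84.1 and 86.1 across the ESC libraries. Pds5a, a regulator of cohesin, stood at 10.7, 10.8 and 12.1 FPKM across the 2CLC libraries and 65.7, 54.3 and 69.9 across the ESC libraries. Nipbl, the cohesin loader, fell from 15.5 ± 1.05 to 5.24 ± 0.285 FPKM, Nup153 of the pore from 58 ± 1.77 to 21.4 ± 0.5 FPKM and Lmnb1 of the lamina from 219 ± 6.15 to 94.2 ± 5.64 FPKM.

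Core and linker histone genes rose almost without exception. Under their newer symbols, counted after the data had been seen, 52 of 53 tested genes rose, and 27 of the 53 reached the filter only through 2CLC. The 9 genes still under Hist1h symbols all rose, and none of these depended on 2CLC for the filter. The medians in 2CLC and ESC were 25.7 and 0.824 FPKM for 14 H2A genes, 14.8 and 0.629 for 12 H2B genes, 38.4 and 0.804 for 12 H3 genes and 26.2 and 0.38 for 10 H4 genes. Hist1h4n, an H4 gene, was measured at 94.2, 102 and 94.1 FPKM across the 2CLC libraries and 1.81, 1.36 and 0.484 across the ESC libraries. Hist1h2ao, an H2A gene, was measured at 54.4, 53.7 and 47.9 FPKM across the 2CLC libraries and 1.67, 1.52 and 1.41 across the ESC libraries. H1f0, a linker histone made outside S phase, stood at 25 ± 4.12 FPKM in 2CLC and 18.8 ± 0.368 in ESC and was the 1 tested gene without a call that held. Of the replacement histones, whose messages carry a poly(A) tail, few kept a call under all 4 scalings. Of 11 tested, a set that also counts the linker genes H1f0 and H1f10, H2ax and H1f10 rose and Macroh2a2 fell. H3f3a stood at 142 ± 17.5 FPKM in 2CLC and 165 ± 28 in ESC and H3f3b at 203 ± 9.16 FPKM in 2CLC and 280.4 ± 10.8 in ESC, neither with a call that held.

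Clustered histone messages end without a poly(A) tail. Of 57 tested small structured noncoding RNAs, 12 rose and 13 fell. Narrower lists, formed from such RNAs after their values were seen, went different ways. Of 11 tested structured RNAs with promoters of their own, 9 rose, and 5 of the 11 reached the filter only through 2CLC. Rn7sk, the 7SK RNA that restrains elongation of polymerase II, was measured at 51.9, 44.9 and 68.4 FPKM across the 2CLC libraries and 3.24, 2.93 and 2.17 across the ESC libraries. Rn7s1, of the signal recognition particle, was measured at 21.7, 24.2 and 17.6 FPKM across the 2CLC libraries and 1.25, 1.81 and 1.6 across the ESC libraries. Rpph1, the RNA of RNase P, was measured at 6.09, 4.89 and 3.59 FPKM across the 2CLC libraries and 0.109, 0.104 and 0.175 across the ESC libraries. Their summed level was 167 to 206 FPKM in 2CLC and 12.2 to 15.5 in ESC. Small nucleolar RNAs, which are mostly cut from introns of host genes and carry no tail either, had 3 risen and 13 fallen of 46. The labels name the same library kit for both groups, and the part of RNA selection in the histone result was not tested. The lists of RNAs with promoters of their own and of small nucleolar RNAs are those formed after the values were seen.

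The machinery of RNA polymerase II split. Of 42 members 6 rose and 15 fell (median -0.68 as deposited and 0.06 with median-of-ratios scaling), a fallen share near that of all genes. The large subunit Polr2a was measured at 158, 156 and 145 FPKM across the 2CLC libraries and 84.5, 79.4 and 84.6 across the ESC libraries. Ctr9, of the elongation complex PAF, was measured at 105, 105 and 102 FPKM across the 2CLC libraries and 20.03, 20.7 and 21 across the ESC libraries. Gtf2b, the initiation factor TFIIB, was measured at 93.6, 90.5 and 85.7 FPKM across the 2CLC libraries and 21.9, 20.6 and 20.6 across the ESC libraries. These 3 rose, as did Supt6 and Taf7. Cdk7, the kinase of TFIIH, stood at 8.81, 9.37 and 10.1 FPKM across the 2CLC libraries and 38.2, 38.7 and 36.9 across the ESC libraries and fell. Aff1, a scaffold of elongation complexes, fell from 25.8 ± 0.649 to 4.24 ± 0.745 FPKM, and the small subunits Polr2h and Polr2i fell from 52.9 ± 3.25 to 17.9 ± 2.64 FPKM and from 42.5 ± 1.73 to 12.2 ± 2.34 FPKM. Nelfb and Nelfcd, partners of Nelfa in its complex, fell from 23.5 ± 0.723 to 11.2 ± 0.0694 FPKM and 40.1 ± 1.05 to 20.9 ± 0.771 FPKM.

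Nonsense-mediated decay, which removes faulty messages, had 11 fallen and 0 risen of 23 genes (median -0.90 as deposited and -0.18 with median-of-ratios scaling). Upf1, its helicase, stood at 23.1, 21.7 and 21.2 FPKM across the 2CLC libraries and 53.2, 51.3 and 53 across the ESC libraries. Smg1, the kinase of UPF1, fell from 13.6 ± 0.383 to 6.04 ± 0.382 FPKM and Smg9, its partner, from 12.1 ± 0.547 to 2.71 ± 0.174 FPKM.

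Genes that build ribosomes fell in larger numbers than genes for the ribosome's own proteins, a difference that was not tested. Of 50 ribosome biogenesis genes 0 rose and 29 fell (median -1.04 as deposited and -0.29 with median-of-ratios scaling). Polr1b, of RNA polymerase I, was measured at 17.6, 16.6 and 17 FPKM across the 2CLC libraries and 56.8, 55 and 59.3 across the ESC libraries. Bms1, a GTPase of small subunit assembly, was measured at 24.1, 25.3 and 24.3 FPKM across the 2CLC libraries and 84.8, 85.6 and 86.8 across the ESC libraries, and Gar1, a box H/ACA protein, fell from 52.2 ± 2.61 to 12.5 ± 0.669 FPKM. Npm1, the most abundant member, stood at 1417 ± 36.1 FPKM in 2CLC and 1369.9 ± 21.6 in ESC without a call. Of 85 cytosolic ribosomal protein genes 4 rose and 2 fell, and their median changed sign with the scaling (0.35 as deposited, 1.12 with median-of-ratios scaling and -0.27 with quantile normalization). The germline copies Rpl39l and Rpl10l were among the risen: Rpl39l stood at 62.4, 66.5 and 55.2 FPKM across the 2CLC libraries and 3.56, 4.1 and 5.14 across the ESC libraries and Rpl10l rose from 44.6 ± 1.53 to 151 ± 1.89 FPKM. Of 82 mitochondrial ribosomal protein genes 1 rose and 35 fell (median -0.91 as deposited and -0.18 with median-of-ratios scaling). Mrps12 stood at 11.8, 8.87 and 11.8 FPKM across the 2CLC libraries and 61.8, 57.3 and 59.6 across the ESC libraries and Mrps6 at 2.76, 3.51 and 3.74 FPKM across the 2CLC libraries and 20.4, 20.7 and 18.1 across the ESC libraries.

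Among translation factors 11 of 49 fell and 0 rose, both below the shares of all genes. Eif1a, the initiation factor whose multi-copy relatives mark the 2-cell embryo, was measured at 31.4, 31.2 and 33.2 FPKM across the 2CLC libraries and 93.2, 89.8 and 92.5 across the ESC libraries and fell. Only Eif1a itself matched the name searched for these relatives, so its fall does not describe them. Denr, of ribosome recycling, fell from 55.5 ± 0.927 to 15.8 ± 1.22 FPKM. Aminoacyl-tRNA synthetases, with 12 fallen of 38, lay near the background, but Iars, for isoleucine, was measured at 287, 309 and 269 FPKM across the 2CLC libraries and 84.1, 84.9 and 86.5 across the ESC libraries and rose (log2 change 1.75), while Lars, for leucine, fell from 84.1 ± 1.69 to 36.6 ± 1.04 FPKM.

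Few genes of protein turnover kept a call under all 4 scalings. Of 43 proteasome subunits 2 rose and 3 fell, while as deposited 3 were higher and 28 lower. The list median changed sign with the scaling (-0.30 as deposited and 0.44 with median-of-ratios scaling). Psmb10, an immunoproteasome subunit, stood at 5.36, 3.53 and 4.62 FPKM across the 2CLC libraries and 39.3, 38.8 and 37.6 across the ESC libraries, and Psmd9, an assembly chaperone, rose from 10.9 ± 0.383 to 30.3 ± 2.73 FPKM. Of 34 chaperones 4 rose and 6 fell. Hspa1a, the inducible HSP70, was measured at 20.6, 19.9 and 20.8 FPKM across the 2CLC libraries and 1.65, 0.532 and 0.598 across the ESC libraries. Hspa1b, its near-identical copy, rose from 5.06 ± 0.38 to 27.6 ± 1.07 FPKM, and reads cannot be split surely between them. Hspa5, the chaperone of the endoplasmic reticulum, fell from 176 ± 9.41 to 76.5 ± 5.4 FPKM (adjusted p up to 0.0477 over the scalings). In autophagy and lysosomes 5 rose and 5 fell of 41. Gabarapl2 rose from 100.2 ± 2.65 to 205 ± 21.3 FPKM while its relative Gabarapl1 fell from 15.1 ± 1.05 to 2.23 ± 0.548 FPKM, and Tfeb, which drives lysosome genes, stood at 0.977, 0.706 and 1.56 FPKM across the 2CLC libraries and 13.5, 14.5 and 15.6 across the ESC libraries. Stress response genes of ATF4 and the unfolded protein response had 4 risen and 8 fallen of 33, with Ppp1r15a at 42.6, 44.1 and 40.2 FPKM across the 2CLC libraries and 10.3, 11.5 and 11.1 across the ESC libraries and Trib3 at 1.37, 1.73 and 2.56 FPKM across the 2CLC libraries and 16.4, 15.9 and 15.5 across the ESC libraries.

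**Figure D5:**
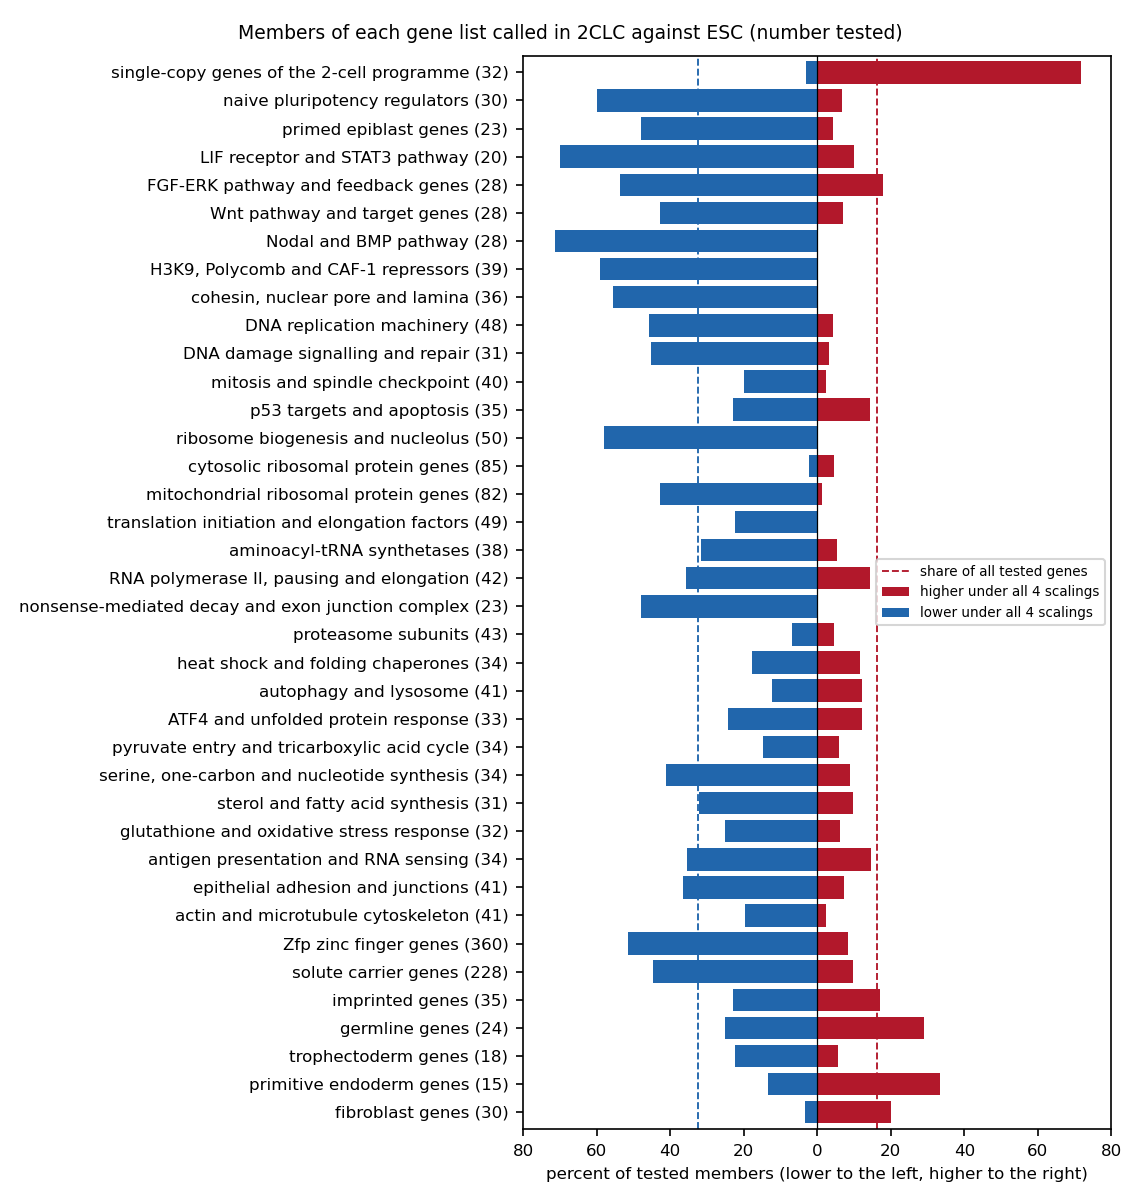
Percent of the tested members of 38 gene lists that rose (right, red) or fell (left, blue) under all 4 scalings, with the number tested in parentheses and dashed lines at the shares of all tested genes, 16.2% and 32.4%. The Nodal and BMP list and the LIF list reach furthest left, and the cytosolic ribosomal protein and proteasome lists have the shortest bars.

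Genes of DNA replication had more falls than those of mitosis. Of 48 replication genes 2 rose and 22 fell (median -0.89 as deposited and -0.14 with median-of-ratios scaling), and of 40 mitotic genes 1 rose and 8 fell (median -0.55 as deposited and 0.20 with median-of-ratios scaling). This difference was not tested. Pola2, of the primase complex, was measured at 11.6, 11.4 and 10.7 FPKM across the 2CLC libraries and 48.1, 48 and 49.3 across the ESC libraries. Cdc6, which loads the helicase, was measured at 8.34, 8.19 and 7.49 FPKM across the 2CLC libraries and 24, 23.7 and 23.6 across the ESC libraries, and Mcm2, of that helicase, fell from 169 ± 3 to 86.2 ± 1.74 FPKM. Kif11, the spindle motor, fell from 43.8 ± 2.62 to 13.3 ± 0.896 FPKM. Pttg1, securin, which guards sister chromatids, was measured at 24, 27.3 and 33.8 FPKM across the 2CLC libraries and 5.02, 4.84 and 3.2 across the ESC libraries and rose. Plk1 stood at 41.8 ± 2.28 FPKM in 2CLC and 92.2 ± 1.31 in ESC and Ccnb1 at 129.7 ± 5.18 FPKM in 2CLC and 159.7 ± 2.78 in ESC, neither with a call that held.

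DNA damage genes showed 14 falls and 1 rise among 31. Atm fell from 12.1 ± 0.378 to 4.79 ± 0.153 FPKM and Rad50 from 12.1 ± 0.189 to 3.11 ± 0.299 FPKM. Nbn, the partner of RAD50, stood at 2.89, 2.74 and 3.02 FPKM across the 2CLC libraries and 11.8, 12.6 and 12.2 across the ESC libraries. Among p53 targets and apoptosis genes 5 rose and 8 fell of 35. Pmaip1, the BH3-only protein NOXA, was measured at 46.7, 49.9 and 47.1 FPKM across the 2CLC libraries and 6.21, 7.01 and 6.78 across the ESC libraries, and Plk2 rose from 10.1 ± 1.01 to 58.1 ± 2.88 FPKM. Bid and Bbc3 fell, the latter from 7.8 ± 0.574 to 1.05 ± 0.138 FPKM, and Cdkn1a, the p21 inhibitor, stood at 14.8 ± 1.55 FPKM in 2CLC and 26.6 ± 0.637 in ESC without a call that held.

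In metabolism, nucleotide synthesis showed more falls than the tricarboxylic acid cycle. Of 34 genes for serine, one-carbon and nucleotide synthesis 3 rose and 14 fell, and of 34 genes for pyruvate entry and the cycle 2 rose and 5 fell, a difference that was not tested. Dhodh, of pyrimidine synthesis, was measured at 7.14, 7.93 and 9.54 FPKM across the 2CLC libraries and 44.1, 46.5 and 46.3 across the ESC libraries. Adsl and Ppat, of purine synthesis, fell from 47.3 ± 1.02 to 10.2 ± 1.14 FPKM and 76.3 ± 1.22 to 20.4 ± 1.46 FPKM. Tdh, the threonine dehydrogenase on which mouse ESC depend, was measured at 89.9, 90.8 and 127 FPKM across the 2CLC libraries and 270.4, 269 and 270.2 across the ESC libraries. Prps1, which makes the sugar donor of nucleotides, rose from 45.7 ± 0.276 to 128 ± 6 FPKM. Sdhd, of succinate dehydrogenase, fell from 110.0 ± 1.47 to 42.6 ± 2.63 FPKM. In sterol and fat synthesis Dhcr7, the last step to cholesterol, was measured at 75.6, 74 and 61.5 FPKM across the 2CLC libraries and 15.3, 15.5 and 17.8 across the ESC libraries and rose, while Fasn, fatty acid synthase, fell from 88.8 ± 3.14 to 39.99 ± 2.53 FPKM. Redox genes had 8 fallen and 2 risen of 32. Srxn1, sulfiredoxin, stood at 0.861, 0.966 and 1.16 FPKM across the 2CLC libraries and 13.4, 13.4 and 14.6 across the ESC libraries, and Prdx3, a mitochondrial peroxidase, fell from 48.3 ± 0.374 to 6.27 ± 1.62 FPKM. Mitochondrially encoded genes gave 7 risen of 37, 5 of them transfer RNAs such as mt-Ts1, which went from 262 ± 4.35 to 601 ± 20.5 FPKM. Their share of all FPKM was 7.85% ± 0.17 in 2CLC and 5.01% ± 0.034 in ESC. Of 228 solute carriers 22 rose and 102 fell. Slc25a14, a mitochondrial carrier, stood at 41.1, 39 and 36 FPKM across the 2CLC libraries and 2.46, 2.92 and 2.87 across the ESC libraries, and Slc7a7, of cationic amino acid transport, at 1.32, 1.25 and 1.96 FPKM across the 2CLC libraries and 25.2, 21.9 and 24.8 across the ESC libraries.

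Antigen presentation and RNA sensing moved both ways, with 5 risen and 12 fallen of 34, shares near those of all tested genes. Ddx58, the RNA sensor RIG-I, stood at 1.5, 1.25 and 2.61 FPKM across the 2CLC libraries and 16.1, 14.8 and 16.8 across the ESC libraries. Eif2ak2, the RNA-dependent kinase PKR, was measured at 0.785, 0.971 and 0.959 FPKM across the 2CLC libraries and 8.28, 8.03 and 8.36 across the ESC libraries, and Adar, which edits double-stranded RNA, fell from 18.1 ± 0.715 to 4.42 ± 0.192 FPKM. H2-K1, a class I heavy chain, rose from 7.73 ± 0.304 to 19.18 ± 0.742 FPKM and Bst2, tetherin, from 12.6 ± 0.139 to 43.3 ± 8.61 FPKM. B2m, the light chain, stood at 6.98 ± 0.21 FPKM in 2CLC and 8.32 ± 0.508 in ESC without a call that held.

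Epithelial adhesion genes, which hold ESC colonies together, had a fallen share near that of all tested genes. Snai1, a repressor of E-cadherin, was measured at 107, 109 and 96 FPKM across the 2CLC libraries and 1.26, 1.96 and 2.1 across the ESC libraries (log2 change 5.25 ± 0.17). Cdh1, E-cadherin, stood at 76.6 ± 6.67 FPKM in 2CLC and 91 ± 3.13 in ESC, and its direction changed with the scaling (-0.25 as deposited, 0.51 with median-of-ratios scaling). Of 41 members 3 rose and 15 fell. Pkp2, a desmosome protein, fell from 33.8 ± 0.701 to 2.95 ± 0.14 FPKM. In the cytoskeleton 8 of 41 fell and 1 rose, among the falls Tagln2, from 52 ± 2.06 to 13 ± 1.74 FPKM. Actb, beta-actin, was measured at 802, 980.4 and 659 FPKM across the 2CLC libraries and 799, 737 and 779 across the ESC libraries and had no call that held. Its 2CLC replicates 1 and 2 lay above and replicate 3 below all ESC libraries.

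Imprinted and germline genes had both rises and falls. Of 35 imprinted genes 6 rose (17.1%) and 8 fell (22.9%), a risen share near that of all tested genes and a fallen share below it. H19 stood at 2.72, 3.53 and 6.7 FPKM across the 2CLC libraries and 0.404, 0.453 and 0.499 across the ESC libraries and Magel2 at 10.1, 9.46 and 8.38 FPKM across the 2CLC libraries and 0.316, 0.353 and 0.376 across the ESC libraries, while Meg3 rose from 9.62 ± 0.753 to 23.1 ± 0.802 FPKM. Slc38a4 fell from 62 ± 1.05 to 14.7 ± 0.243 FPKM and Nnat from 17.5 ± 2.03 to 2.21 ± 0.671 FPKM. Of 24 germline genes 7 rose (29.2%) and 6 fell (25%), against 16.2 and 32.4% of all tested genes. Of the 24, 6 reached the filter only through ESC and 1 only through 2CLC, which bore on their direction. Rhox5, a homeobox gene of the X chromosome, was measured at 48.4, 53.6 and 37.7 FPKM across the 2CLC libraries and 2.08, 2.13 and 1.16 across the ESC libraries. Tex19.1, which restrains retrotransposons, was measured at 42.5, 46.2 and 44.1 FPKM across the 2CLC libraries and 11.4, 10.3 and 12.1 across the ESC libraries. Dazl, an RNA-binding protein of germ cells, rose from 2.89 ± 0.153 to 11.6 ± 0.529 FPKM, and Ddx4, the germline helicase VASA, fell from 4.8 ± 0.428 to 1.69 ± 0.357 FPKM. Olfactory and vomeronasal receptor names gave 32 risen of 35 tested, but 31 of the 35 passed the filter only through 2CLC, and 82 such names are in the table. Of the risen, Olfr376 stood at 16.6, 15.6 and 15.6 FPKM across the 2CLC libraries and 0 in each across the ESC libraries. Hox genes, which pattern the body axis, had 9 risen and 3 fallen of 33. Of the table's 41 Hox names, 33 were under 1 FPKM in every 2CLC library and 37 in every ESC library. Hoxd13 was measured at 8.1, 7.73 and 8.44 FPKM across the 2CLC libraries and 1.89, 1.86 and 2.04 across the ESC libraries.

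Markers of other lineages were counted to see what else a 2CLC library could hold. Of 30 fibroblast genes 6 rose and 1 fell. Their summed level was 147 to 153 FPKM in 2CLC, 168 to 176 in ESC and 6263 on average in MEF. 19 of the 30 were under 1 FPKM in every 2CLC library, among them Col1a1 at 0.291, 0.536 and 0.855 FPKM against a mean of 310.1 in MEF. Thy1 rose, with 4.38, 5.89 and 4.78 FPKM in 2CLC against 1.41, 0.896 and 0.897 in ESC. Primed epiblast genes had 1 risen and 11 fallen of 23, and Fgf5 was 0 in each 2CLC library against a mean of 36.2 FPKM in EpiSC. Of 15 primitive endoderm genes 5 rose and 2 fell. Sox17, a factor of the lineage, stood at 1.08, 1.77 and 1.19 FPKM across the 2CLC libraries and 0.101, 0.14 and 0.164 across the ESC libraries. It reached the filter only through 2CLC, which fixed its direction. Sparc rose from 60.6 ± 3.39 to 107 ± 5.58 FPKM, and Gata6, the lineage's defining factor, was under 0.2 FPKM in each 2CLC library. Trophectoderm genes had 1 risen and 4 fallen of 18, with Eomes at 0.586, 0.535 and 0.985 FPKM across the 2CLC libraries and 10.9, 11 and 11.7 across the ESC libraries. Of 10 mesoderm and neural genes 2 rose and 5 fell, and of 10 blood and endothelial genes 0 rose and 4 fell. Any part of other cells in the changes above was not tested.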

How the data were processed

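Libraries of 2CLC and ESC (3 each) were compared in a fit that also held 3 libraries each of EpiSC and MEF, grouped by their titles. Trizol RNA went into a TruSeq kit, per the labels' protocols. Reads were handled with HISAT2 2.0.4 and StringTie 2.1.4 on mm10, per the submitters' processing notes. The authors deposited FPKM, and neither their annotation nor the depth is given in the sources used here. The table holds 21199 entries for 21161 names, each with at least 0.5 FPKM in some library. 35 names stand more than once, with equal values in all but the first column, and none of these is named. GENCODE M21 on GRCm38 knows 20640 of the names, and promoters come from RefSeq (GRCm38.p6).

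Entries of a name were summed, and a gene was tested if 3 or more of 12 libraries held 1 FPKM or more, as log2(FPKM + 1), with limma 3.58.1 in R 4.3.3 (moderated variances with a mean trend, Benjamini-Hochberg adjustment over all tested genes at 0.05), as deposited and after 3 other scalings. These set every library to the same sum (TPM), to a median ratio of 1 to the gene means, or to the same distribution. The pipeline was tested on simulated data. Tables and figures were made in Python 3.11.15 (numpy 2.4.6, matplotlib 3.10.9, pandas 2.3.3).

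Named genes are the 12 largest rises and 12 largest falls (called under all 4 scalings, the higher group at 5 FPKM or more, no overlap of groups, no predicted-gene name, 1 per near-identical family), and, per list, anchor genes and up to 4 called members with the largest change. Other genes, such as receptors, partners and members given for their role, were chosen after their values were seen, and some members are not reported here. The lists and this rule were written with earlier results of these data known, and 4 lists (histones under newer symbols, replacement histones, structured RNAs, small nucleolar RNAs) were added after these values were seen. Alternatives were pseudocounts of 0.1 and 5, no filter, a filter of 5 FPKM, no mean trend, a fit of the 6 libraries alone, a replicate block, leaving out each library and, added after seeing the data, leaving out EpiSC replicate 1 or repeated names.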

Additional observations from a re-analysis of the deposited data

How the results depend on the processing

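With median-of-ratios scaling 6018 genes were higher and 5301 lower (3071 and 1612 by at least 1), and with equal sums 6940 were lower by at least 1. A filter of 5 FPKM tests fewer genes and left 2133 higher, 1287 by at least 1 and 1620 under all 4 scalings. A pseudocount of 5 shrinks changes of low genes and left 1189 higher and 1848 lower by at least 1. No other alternative moved a count by over 1.5 times. Without EpiSC replicate 1, which enters only the pooled spread and the scalings, 3576 genes were higher and 9807 lower. Under all 4 scalings these were 2795 and 5987. In the fit of the 6 libraries alone 3237 were higher and 8870 lower, 2593 and 5448 under all 4 scalings. Leaving out 1 library of 2CLC or ESC gave 3094 to 3279 higher and 8851 to 8969 lower genes, 2016 to 2068 and 4277 to 4387 by at least 1, and 2530 to 2612 and 4958 to 5151 under all 4 scalings. Replicate numbers did not pair the libraries (correlations of same-numbered deviations 0.06, 0.03 and -0.02), and with the replicate block 3285 genes were higher and 9198 lower, 2627 and 5243 under all 4 scalings, with the call of each of 208 named genes as before. Among named genes called lower as deposited, median-of-ratios scaling gave a positive change for B2m (0.46), Ctnnb1 (0.40), Dppa4 (0.12), H3f3b (0.30), Pou5f1 (0.27) and Spry2 (0.46). Quantile normalization did so for B2m (0.22) and Spry2 (0.082). The positive changes of Dppa4 with median-of-ratios scaling and Spry2 with quantile normalization were not called (adjusted p = 0.109 and 0.174, limma). Of named genes not called as deposited, Ccnb1, Cdh1, H3f3a and Setdb1 changed sign with median-of-ratios scaling. Actb, Npm1, Setdb1 and Trim28 did so with quantile normalization, and Actb, Npm1 and Trim28 with equal sums. None of these is described as risen or fallen. Of 54 list medians, 21 changed sign with median-of-ratios scaling, 4 with quantile normalization and 2 with equal sums. The cause of these differences between scalings was not tested. With 3 libraries a group and no read counts, the precision at low FPKM is unknown.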
